A study of Mus musculus with 8 samples.

Results

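The interaction of a statin with lipopolysaccharide (LPS) was measured across genes in RAW macrophages, an established macrophage-like line of the mouse that carries a leukaemia virus. It asks, gene by gene, whether the statin changed expression differently in LPS-stimulated cells and in resting cells, which is the same as asking whether the LPS response differed with and without statin. Ribosomal RNA-depleted libraries were sequenced from 4 groups of 2 libraries each: statin LPS, ctl LPS, statin and Ctrl. Statin LPS and statin cells had 7 µM statin (lovastatin, per the study, given along with mevalonate) in lipoprotein-deficient serum, whereas ctl LPS and Ctrl cells had no statin. Statin LPS and ctl LPS cells then had LPS at 100 ng/ml for 3 h in medium with albumin. Whether the cells without statin had the same serum or mevalonate is not stated, so each statin comparison is of the whole treatment, and each LPS comparison may also hold a change of medium. All groups came from the same line, and whether the 2 libraries of a group were separate cultures is not stated, so p-values measure only the spread between these libraries. Genes were taken by expression alone. Those whose normalized counts averaged 10 or more across the 8 libraries were kept, which left 11647 of the 24421 entries of the table. On the edge of this rule Adam4 was kept with a mean of 10.02, and Ptrf was left out with 9.98.

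LPS is sensed at the macrophage surface by Toll-like receptor 4 with CD14 and MD-2. Its MyD88 arm activates NF-kB and MAP kinases and induces cytokines, chemokines and immediate early genes, and its TRIF arm activates IRF3, which induces interferon beta. Secreted interferon then acts back on the cells through a factor complex that holds STAT2 and IRF9 and induces a large set of antiviral genes. Statins block the mevalonate pathway of sterol synthesis, and cells short of sterol activate SREBP2, which raises genes of cholesterol synthesis and uptake, while ligands of the liver X receptor (LXR), which raises genes of cholesterol efflux, become scarcer.

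Depth ranged between 37.0 and 76.4 M (M, 1e6) gene-assigned reads. Spread within a pair was smallest under LPS, with a robust SD of the log2 ratio of the 2 libraries of 0.0787 in statin LPS, 0.0656 in ctl LPS, 0.151 in statin and 0.217 in Ctrl, and the libraries of every pair differed by more than counting noise. Statin replicate 2 had 1.72% of its reads on the ribosomal precursor Rn45s, against 0.0705 to 0.153% in the other 7 libraries. Summed markers of macrophages were high in every library, at 431053 to 699234 normalized counts, and epithelial markers did not pass 0.980. Markers of complement-making tissue macrophages (C1qa, C1qb and C1qc) summed to 273 and 365 in statin LPS, 1634 and 1.25 in ctl LPS, 0 and 1.88 in statin and 0.781 and 5.88 in Ctrl. The summed markers of fibroblasts were 444 and 541 in statin LPS, 899 and 41.3 in ctl LPS, 437 and 597 in statin and 45.3 and 166 in Ctrl. In statin and Ctrl nearly all of that sum was Pdgfrb, at 436 and 596 in statin and 43.7 and 166 in Ctrl, with 5 of the 7 members at 0 in all 4 of those libraries. In ctl LPS replicate 1 the sum was mostly the collagens Col1a1 (313), Col1a2 (289) and Col3a1 (165). Both statin LPS libraries also held these collagens, with Col1a1 at 137 and 175, Col1a2 at 119 and 135 and Col3a1 at 45.2 and 69.1. In ctl LPS replicate 2 they were at 0, 1.25 and 0. Both sums set ctl LPS replicate 1 apart from replicate 2. Of the LPS libraries only ctl LPS replicate 2 was near 0 in the C1q genes and these collagens. A fit without ctl LPS replicate 1 therefore does not balance this RNA between statin LPS and ctl LPS. The part of these markers in the interaction was not tested. These are bulk libraries, in which a change in the number of cells that express a gene and a change of RNA per cell cannot be told apart.

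The interaction is the log2 change by statin under LPS (statin LPS against ctl LPS) minus the log2 change by statin at rest (statin against Ctrl), on log2 of the normalized count plus 1. It equals the LPS change with statin minus the LPS change without statin. A value below 0 means that statin lowered the gene further, or raised it less, under LPS than at rest. A gene was called when limma gave an adjusted p under 0.05 (Benjamini-Hochberg, two-sided) over all 11647 genes. The interaction was called for 6480 genes, 2973 of them higher (25.5% of the genes tested) and 3507 lower (30.1%), with 1085 higher and 1638 lower by more than 2-fold. At an unadjusted p under 0.05 there were 7098 genes. With the libraries that stood apart left out, ctl LPS replicate 1 and statin replicate 2, 2025 genes were called higher and 2530 lower, of which 1956 and 2480 were also called in the fit of all 8 libraries. That fit still sets C1q and collagen RNA in both statin LPS libraries against ctl LPS replicate 2, which was nearly free of it. Scaling the libraries to equal totals in place of the authors' size factors moved the median interaction over all genes by 0.46 on the log2 scale. The share of calls that were higher was then 75.8%, against 45.9% with the authors' scaling. Directions of gene groups are therefore read beside the median of all genes, which was -0.03 with the authors' scaling and 0.42 with equal totals.

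The LPS change was smaller in size with statin than without it in 5690 of the 6480 called genes, and larger in 790. Over all genes tested it was smaller in 8830, or 75.8%. Among the 1179 genes that were more than 4-fold higher in ctl LPS than in Ctrl, 1008 had an interaction called lower and 5 called higher, and the median LPS change was 1.51 with statin and 3.43 without (log2). Among the 787 genes more than 4-fold lower in ctl LPS than in Ctrl, 658 were called higher and 5 lower, and the median LPS change was -1.09 with statin and -2.80 without. Statin LPS and statin libraries thus lay closer to each other than ctl LPS and Ctrl libraries did, in rises and in falls. These counts are a description, because the interaction contains the ctl LPS and Ctrl libraries by which the genes were sorted. LPS with statin (statin LPS against statin) raised 29.2% and lowered 29.0% of the genes tested, and LPS without statin (ctl LPS against Ctrl) raised 39.9% and lowered 37.6%. Statin under LPS raised 31.4% and lowered 32.9% (3659 and 3828 genes), and statin at rest raised 30.4% and lowered 25.7% (3544 and 2998). The fit takes 1 variance per gene for all groups, although the spread within pairs was larger at rest. With libraries weighted by group, statin under LPS raised 4434 genes and lowered 4659, and statin at rest raised 2811 and lowered 2142.

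**Figure D1:**
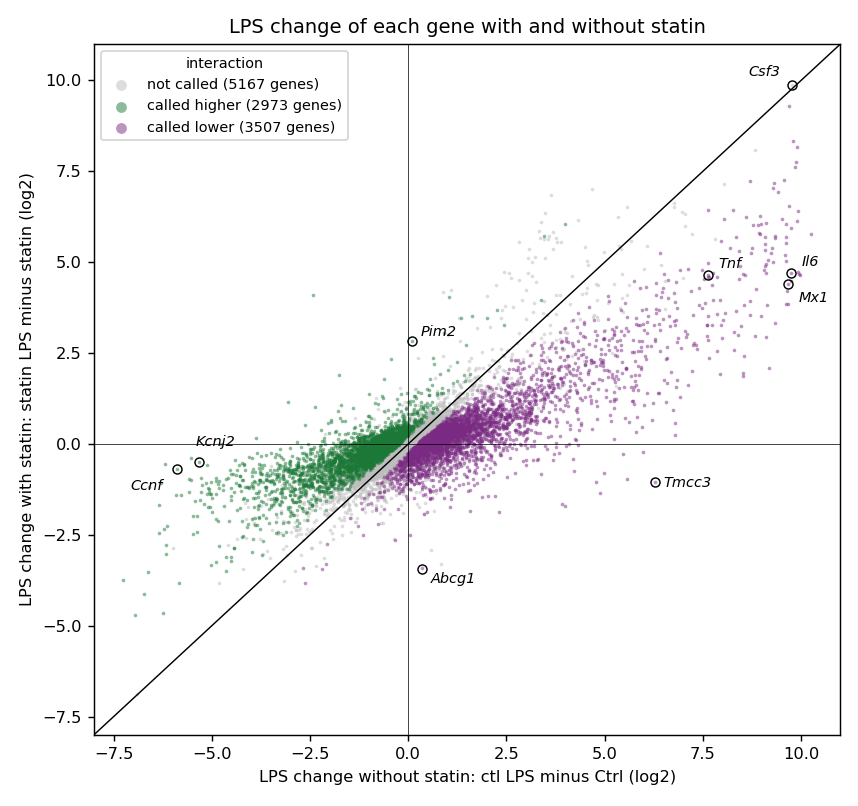
LPS change of each of the 11647 genes with statin (vertical axis, statin LPS against statin) against the LPS change without statin (horizontal axis, ctl LPS against Ctrl), both in log2, with genes coloured by the call of the interaction and the line of equal change drawn. Genes called lower lie below the line and genes called higher above it, and most called genes lie between that line and the horizontal line of no LPS change with statin.

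All 47 genes of the interferon response list were called lower, with a median interaction of -2.53. LPS raised all 47 with and without statin, and the median LPS change was 3.52 with statin and 6.40 without. At rest statin changed few of them, with 3 called higher and 10 lower, whereas under LPS all 47 were lower with statin. Over the 20 alternatives 42 to 47 were called lower and none higher, with 44 at equal totals. Among all genes tested 30.1% were called lower.

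Mx1 (chr16:97447035-97462906, build GRCm38), a GTPase that blocks influenza viruses, had 873 and 754 normalized counts in statin LPS, 33298 and 33316 in ctl LPS, 42.1 and 32.9 in statin and 50.7 and 31.4 in Ctrl. The ctl LPS libraries stood far above all others, and the statin LPS libraries were above the resting pairs, which overlapped. The interaction of Mx1 was -5.26 ± 0.30 (SE, adjusted p = 3.54e-06), from an LPS change of 4.41 with statin and 9.67 without. Rsad2 encodes viperin, an antiviral enzyme that makes a chain-terminating nucleotide, and had 102054 and 92629 normalized counts in statin LPS, 1006978 and 1006991 in ctl LPS, 1142 and 1165 in statin and 1091 and 999 in Ctrl. Its 4 pairs again put ctl LPS first and statin LPS next, with an interaction of -3.52 ± 0.10 (SE, adjusted p = 4.86e-07). Iigp1, a GTPase that attacks vacuoles of intracellular parasites, had the lowest value of the list at -5.45 ± 0.40 (SE, adjusted p = 1.11e-05), with 121 and 141 normalized counts in statin LPS, 8282 and 7989 in ctl LPS, 7.16 and 15.04 in statin and 14.8 and 15.7 in Ctrl. Isg15, a ubiquitin-like modifier, kept more of its LPS response, with 21139 and 19617 in statin LPS, 69584 and 65936 in ctl LPS, 206 and 262 in statin and 270.1 and 179 in Ctrl, and an interaction of -1.81 ± 0.25 (SE, adjusted p = 0.000441). The transcription factors of the pathway were called lower too. Irf7, which amplifies interferon production, had 7472 and 6939.8 normalized counts in statin LPS, 71430.1 and 71821 in ctl LPS, 929 and 1602 in statin and 1759.7 and 786 in Ctrl, with overlapping resting pairs and an interaction of -3.37 ± 0.50 (SE, adjusted p = 0.000584). Stat2 had an interaction of -2.68 and Irf9 of -0.68, the smallest of the list.

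The stretch upstream of a gene's start is shown for an interferon gene with a large interaction and an interferon gene with a small one. The windows hold the 250 bases before the annotated start (RefSeq, GRCm38.p6), 5′ to 3′ on the strand of the gene, and positions count back from the start and give the first base of a match. Capitals mark matches to GAAANNGAA, a short form of the interferon-stimulated response element, searched on both strands. It lies in 7.13% of all 32851 windows of this length.
Rsad2 (chr12:26456453-26456702, minus strand): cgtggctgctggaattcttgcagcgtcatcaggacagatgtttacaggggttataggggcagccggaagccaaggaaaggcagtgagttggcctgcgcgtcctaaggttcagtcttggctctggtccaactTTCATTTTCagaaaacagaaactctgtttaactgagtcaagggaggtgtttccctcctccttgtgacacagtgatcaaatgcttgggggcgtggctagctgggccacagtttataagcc
Isg15 (chr4:156200819-156201068, minus strand): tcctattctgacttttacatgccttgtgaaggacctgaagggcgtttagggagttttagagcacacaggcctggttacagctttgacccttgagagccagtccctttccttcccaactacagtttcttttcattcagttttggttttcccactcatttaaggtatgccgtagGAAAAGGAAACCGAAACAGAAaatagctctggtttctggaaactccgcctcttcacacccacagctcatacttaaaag
Rsad2 holds 1 match, at -119, and Isg15 holds 3 overlapping matches, at -78, -72 and -66. The match is a description of these letters and was not tested for binding. Only 34 of the 47 genes had a window, so no share over the list was taken.

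Genes upstream of that response did not move alike. Of 14 genes of interferon induction and receptor signalling, 8 were called lower and 2 higher, where 30.1% and 25.5% of all genes were. The list median was -0.85, and with equal totals 7 were lower and 5 higher. Ifnb1 (chr4:88522025-88522794), which encodes interferon beta, had 857 and 619 normalized counts in statin LPS, 9401 and 9641 in ctl LPS, 13.4 and 11.3 in statin and 9.37 and 4.90 in Ctrl. It was near the floor at rest in every library and was far higher in both LPS pairs, highest in ctl LPS, and its interaction was -4.47 ± 0.38 (SE, adjusted p = 2.48e-05). The transcription factor Irf1 (-1.87 ± 0.17, SE, adjusted p = 3.26e-05) and Irf8 (-2.04 ± 0.12, SE, adjusted p = 4.62e-06), which sets the myeloid lineage, were also lower. Traf3, an adaptor that links TRIF to the kinases of IRF3, went the other way. It had 2199 and 2327 normalized counts in statin LPS, 885 and 865 in ctl LPS, 2328 and 2319 in statin and 2355 and 2212 in Ctrl, so ctl LPS alone was low, and its interaction was 1.34 ± 0.09 (SE, adjusted p = 7.29e-06). The interferon receptor chain Ifnar1 had 6220.3 and 6296 normalized counts in statin LPS, 6632 and 6485 in ctl LPS, 4276 and 4946 in statin and 4292 and 4431 in Ctrl and an interaction that was not called, -0.14 ± 0.10 (SE, 95% interval -0.38 to 0.09, adjusted p = 0.268), and with equal totals its value turned positive, at 0.31.

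Tlr4 and Cd14, of the receptor complex of LPS, had no called interaction with the authors' scaling. Of 16 genes of the LPS receptor and its first signalling steps, 6 were called lower and 1 higher, with a median of -0.16. Among all genes tested 30.1% were called lower and 25.5% higher. With equal totals the list median was 0.30, with 4 lower and 9 higher. Its difference from the median of all genes was -0.12 with either scaling. Tlr4, the receptor, had 8172 and 8235 normalized counts in statin LPS, 6002 and 6015 in ctl LPS, 8326 and 8975 in statin and 6860.2 and 6141 in Ctrl, higher with statin in both states and not overlapping. Its interaction was 0.04 ± 0.10 (SE, 95% interval -0.19 to 0.26, adjusted p = 0.776), although it was called at 0.49 with equal totals and at 0.30 with quantile normalization. Cd14, the co-receptor that hands LPS over, had 188699 and 188957 normalized counts in statin LPS, 98761 and 99346 in ctl LPS, 98488 and 95923 in statin and 48003 and 54582 in Ctrl. Statin raised it by 0.93 under LPS and 0.93 at rest, and its interaction was 0.01 ± 0.14 (SE, 95% interval -0.32 to 0.33, adjusted p = 0.977), although with equal totals it was called, at 0.46. The adaptor Myd88 had the lowest value of the group. It had 5099.7 and 5311 normalized counts in statin LPS, 18573 and 19105 in ctl LPS, 3529 and 3493 in statin and 3648 and 3472 in Ctrl, so that LPS raised it by 0.57 with statin and 2.40 without, and its interaction was -1.84 ± 0.08 (SE, adjusted p = 1.34e-06). Tab2, a subunit of the TAK1 kinase complex, was lower (-1.27 ± 0.08, SE, adjusted p = 6.82e-06) and Tab1, another subunit, was higher (0.67 ± 0.13, SE, adjusted p = 0.00243).

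NF-kB subunits and feedback genes were lower in 19 of 21 and higher in none, where 30.1% of all genes were called lower. The list median was -1.29, and with equal totals 15 were lower and 2 higher. Statin raised all 21 at rest, and under LPS it raised 5 and lowered 14. Tnfaip3 (chr10:19000910-19015410), which encodes A20, an enzyme that switches NF-kB signalling off, had 21317 and 21906 normalized counts in statin LPS, 77404 and 77021 in ctl LPS, 1484 and 1764 in statin and 664 and 676 in Ctrl. Statin was above Ctrl and statin LPS below ctl LPS, with no overlap in either state, and the interaction was -3.11 ± 0.11 (SE, adjusted p = 9.77e-07). The survival adaptor Traf1 had the lowest value of the list, -3.17 ± 0.08 (SE, adjusted p = 3.71e-07), with a statin change of -1.12 under LPS and 2.04 at rest. Nfkbia, the inhibitor that holds NF-kB in the cytoplasm, had 82314 and 79412 normalized counts in statin LPS, 90368 and 90062 in ctl LPS, 8435 and 10918 in statin and 6729 and 5803 in Ctrl, and its interaction of -0.78 ± 0.17 (SE, adjusted p = 0.00534) was not called with equal totals (-0.32) or quantile normalization (-0.31).

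Of 22 cytokines tested 17 were called lower and 1, Pdgfb, higher, with a median of -1.94. Of 14 chemokines 11 were lower and none higher, with a median of -2.56. The shares over all genes tested were 30.1% lower and 25.5% higher. The call of Pdgfb was lost in 9 of the 20 alternatives, with edgeR among them, and quantile normalization called 4 cytokines higher. Il6 (chr5:30013114-30019975), a cytokine of fever and the acute phase, had 539 and 600.3 normalized counts in statin LPS, 22543 and 21827 in ctl LPS, 22.4 and 19.7 in statin and 22.6 and 27.4 in Ctrl. The ctl LPS pair stood far above statin LPS, the resting pairs were lowest and differed little, and the interaction was -5.05 ± 0.19 (SE, adjusted p = 9.77e-07). Csf1, the growth factor of macrophages, had the lowest value of the cytokines at -5.82 ± 0.16 (SE, adjusted p = 3.85e-07). It had 1730.4 and 1658 normalized counts in statin LPS, 29718 and 29676 in ctl LPS, 132 and 105 in statin and 37.5 and 34.3 in Ctrl, where statin raised it at rest and lowered it under LPS. Il15, which sustains natural killer cells, moved likewise, with an interaction of -4.29 ± 0.16 (SE, adjusted p = 9.77e-07).

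In other cytokines and chemokines the interaction was called lower while statin LPS was not called below ctl LPS, and statin had raised them at rest. Tnf, an early cytokine of the LPS response, had 406149 and 406577 normalized counts in statin LPS, 429352 and 449283 in ctl LPS, 18289.5 and 14292 in statin and 2311 and 2147 in Ctrl. The LPS pairs lay close together while statin stood well above Ctrl, and the interaction was -2.97 ± 0.17 (SE, adjusted p = 3.21e-06) with a statin change of -0.11 under LPS (adjusted p = 0.428) and 2.86 at rest (adjusted p = 2.96e-06). Ccl4, a chemokine for T cells and monocytes, had 150278 and 148722 normalized counts in statin LPS, 150935 and 158404 in ctl LPS, 25451 and 16866 in statin and 627 and 959 in Ctrl. Its LPS pairs differed by -0.05 (adjusted p = 0.859), and its interaction was -4.79 ± 0.31 (SE, adjusted p = 6.31e-06). Cxcl2 (chr5:90903899-90905938), a neutrophil chemokine, had 619353 and 614126 normalized counts in statin LPS, 346517 and 329576 in ctl LPS, 23054 and 17072 in statin and 659.7 and 564 in Ctrl. Statin raised it in both states, by 0.87 under LPS and 5.02 at rest, so the log2 interaction was -4.15 ± 0.20 (SE, adjusted p = 1.76e-06) while the increase in normalized counts by statin was larger under LPS than at rest. Il1b, the inflammasome cytokine, had 223873 and 233862 normalized counts in statin LPS, 160572 and 161089.7 in ctl LPS, 886 and 1519.8 in statin and 182 and 169.6 in Ctrl and an interaction of -2.21 ± 0.28 (SE, adjusted p = 0.000271).

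For some genes the sign of the interaction depended on the scale. In 122 of the 6480 called genes, 71 called lower and 51 called higher, the same difference of differences on the normalized counts had the opposite sign. Among those called lower with a count difference above 0 were, chosen after their values were seen, Cxcl2, Ccl3, Arg2, Phlda1, Ptgs2 and Maff. Ptgs2, the inducible cyclooxygenase of prostaglandin synthesis, had 424984 and 416387 normalized counts in statin LPS, 268610.2 and 268492 in ctl LPS, 8192 and 4907 in statin and 561 and 496 in Ctrl, highest in statin LPS, with a log2 interaction of -2.94 ± 0.28 (SE, adjusted p = 4.79e-05). Maff, a small partner of AP-1 type factors, had 4925 and 4724 normalized counts in statin LPS, 2337 and 2244 in ctl LPS, 1927 and 1682 in statin and 112 and 121 in Ctrl and -2.87 ± 0.12 (SE, adjusted p = 1.24e-06).

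Upstream windows are shown for a cytokine that statin lowered under LPS and a chemokine that it raised in both states. Capitals mark matches to GGGNNTTTC, a form of the kB site, searched on both strands and held by 3.72% of all windows.
Il6 (chr5:30012864-30013113, plus strand): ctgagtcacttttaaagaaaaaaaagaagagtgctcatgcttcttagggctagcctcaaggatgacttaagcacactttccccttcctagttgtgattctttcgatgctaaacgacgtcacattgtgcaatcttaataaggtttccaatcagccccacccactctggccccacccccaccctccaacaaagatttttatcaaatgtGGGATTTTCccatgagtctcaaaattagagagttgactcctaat
Cxcl2 (chr5:90903649-90903898, plus strand): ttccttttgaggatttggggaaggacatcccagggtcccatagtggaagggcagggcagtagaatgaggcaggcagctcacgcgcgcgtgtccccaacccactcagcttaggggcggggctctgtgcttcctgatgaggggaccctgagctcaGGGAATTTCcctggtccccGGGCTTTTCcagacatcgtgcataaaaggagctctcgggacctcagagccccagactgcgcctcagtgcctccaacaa
Il6 holds 1 match, at -44, and Cxcl2 holds 2, at -97 and -78, so genes with unlike statin changes under LPS both hold these letters.

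**Figure D2:**
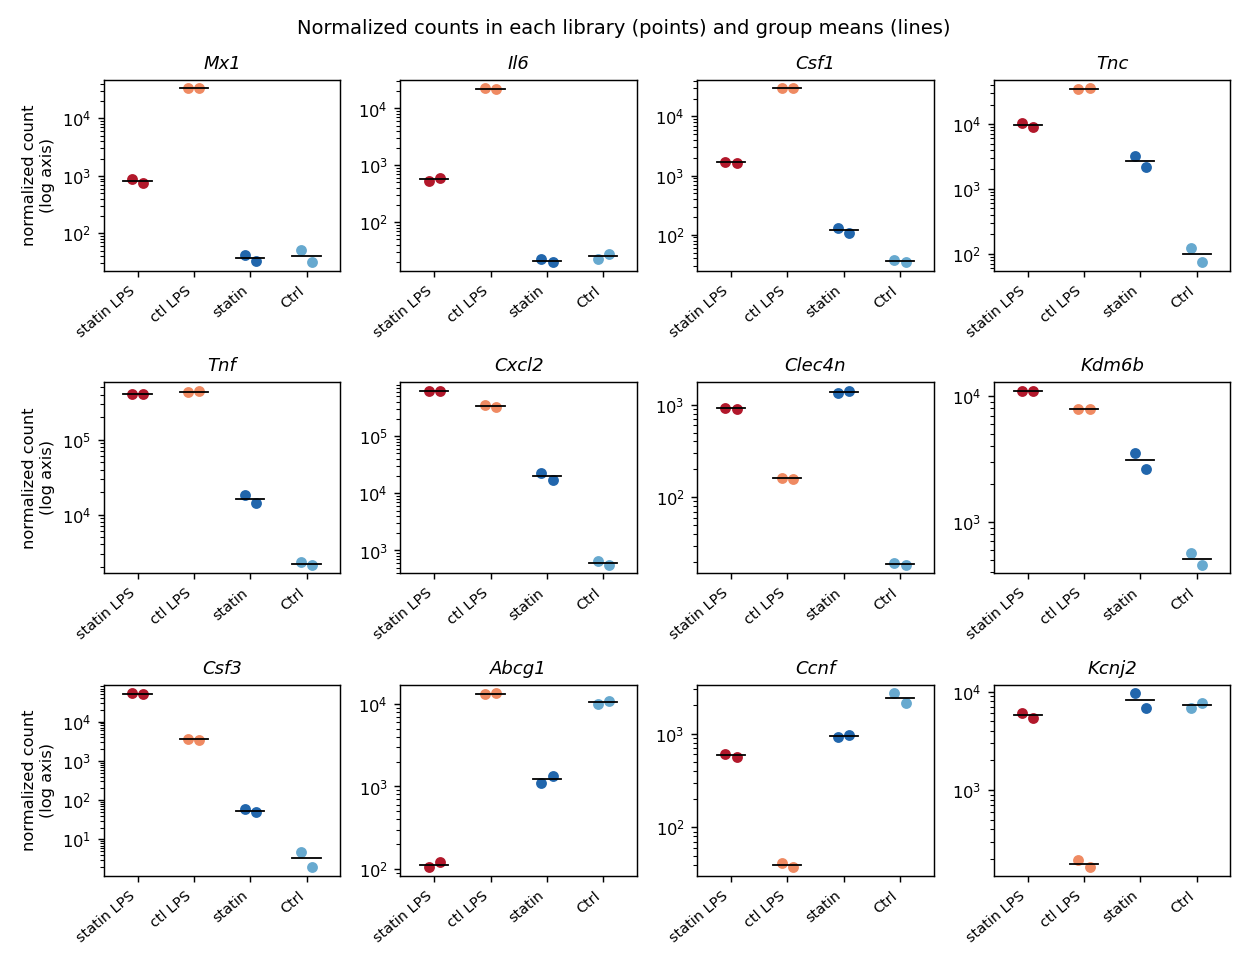
Normalized counts (log axis) in each library of 12 genes, 1 panel per gene, with the groups from left to right as statin LPS, ctl LPS, statin and Ctrl, 1 point per library and a bar at the group mean. Mx1 and Il6 are far highest in ctl LPS, Tnf is close in the LPS pairs, and Ccnf is highest in Ctrl and lowest in ctl LPS.

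Immediate early genes were lower in 27 of 32 and higher in none, against 30.1% of all genes called lower. Their median was -1.83, and with equal totals 21 were lower and 2 higher. Statin raised 29 of the 32 at rest and lowered none, and under LPS it raised 16 and lowered 11. Egr1, an early zinc finger factor, had 11439 and 12445 normalized counts in statin LPS, 23023 and 23251 in ctl LPS, 5833 and 6387 in statin and 1601 and 1572 in Ctrl and an interaction of -2.90 ± 0.10 (SE, adjusted p = 7.24e-07). Fos, a subunit of AP-1, differed in that statin left it close to Ctrl at rest, with 1067 and 993 normalized counts in statin LPS, 2394 and 2474 in ctl LPS, 1522 and 1786 in statin and 1912 and 1491 in Ctrl and an interaction of -1.21 ± 0.17 (SE, adjusted p = 0.000519). Dusp8, a phosphatase of MAP kinases, was nearly silent in Ctrl. Over the pair it had 1388 reads in statin and 13 in Ctrl, a ratio of 113 (95% interval 65.7 to 212, counting error only), whereas statin LPS stood to ctl LPS at 2.00 (1.85 to 2.16). The orphan nuclear receptor Nr4a3 had 459 reads in statin and 4 in Ctrl, a ratio of 121 (47.0 to 446), and a ratio of 2.00 (1.93 to 2.07) under LPS. Areg, a ligand of the EGF receptor, had 779 reads in statin and 8 in Ctrl, a ratio of 103 (51.9 to 239), and a ratio of 3.02 (2.74 to 3.34) under LPS. Statin thus raised these 3 genes in both states, and much further from the near-silent level of Ctrl.

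Brakes of cytokine signalling were lower in 6 of 8 and higher in 2, where 30.1% and 25.5% of all genes were. Socs1, an inhibitor of JAK kinases, had 603 and 584 normalized counts in statin LPS, 2967 and 2966 in ctl LPS, 39.4 and 38.5 in statin and 31.2 and 21.6 in Ctrl, with statin LPS well below ctl LPS, and its interaction was -2.89 ± 0.24 (SE, adjusted p = 2.13e-05). Socs3, an inhibitor of IL-6 signalling, had 24236 and 24583 normalized counts in statin LPS, 25905 and 25743 in ctl LPS, 818 and 972 in statin and 206 and 219 in Ctrl, so its LPS pairs were close and its interaction, -2.15 ± 0.12 (SE, adjusted p = 2.87e-06), came with a rise by statin at rest. Ptpn6, the phosphatase SHP-1, was higher (0.64 ± 0.09, SE, adjusted p = 0.000441).

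Of 13 inflammatory effector enzymes 9 were lower and 1 higher, with a median of -1.61, where 30.1% and 25.5% of all genes were. Nos2 (chr11:78920787-78960226), the inducible nitric oxide synthase, had 11534 and 9822 normalized counts in statin LPS, 43794 and 44442 in ctl LPS, 464 and 416 in statin and 240.5 and 203 in Ctrl. Ctl LPS was highest and the statin pair was above the Ctrl pair, and the interaction was -3.04 ± 0.15 (SE, adjusted p = 1.93e-06). Irg1, which makes itaconate from a citric acid cycle intermediate, had 393538 and 395137 normalized counts in statin LPS, 595089.6 and 595893 in ctl LPS, 9809 and 9869 in statin and 1141 and 1072 in Ctrl and an interaction of -3.75 ± 0.10 (SE, adjusted p = 3.83e-07). Hmox1, which breaks down heme, was the exception. It had 12383 and 12909 normalized counts in statin LPS, 1700.3 and 1246 in ctl LPS, 9618 and 7156 in statin and 3037 and 3094 in Ctrl, so that the LPS change was 0.61 with statin and -1.07 without, and its interaction was 1.68 ± 0.23 (SE, adjusted p = 0.000372).

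Genes of antigen presentation and costimulation were lower without exception. All 13 genes of the MHC class I pathway were called lower, where 30.1% of all genes were. Their median was -1.34, and statin lowered all 13 under LPS against 5 at rest. Nlrc5, the transcriptional activator of the class I genes, had 2226 and 2179.6 normalized counts in statin LPS, 18889.5 and 19453 in ctl LPS, 1172 and 1195 in statin and 1169.5 and 1328 in Ctrl, with ctl LPS far above the other 3 groups, and an interaction of -3.05 ± 0.10 (SE, adjusted p = 7.24e-07). The peptide transporter subunits Tap1 (-2.30 ± 0.21, SE, adjusted p = 4.08e-05) and Tap2 (-2.30 ± 0.11, SE, adjusted p = 1.93e-06) were next. All 6 costimulation and checkpoint genes tested were lower, with a median of -2.79. Cd86, a ligand of CD28 on T cells, had 575 and 498 normalized counts in statin LPS, 4824 and 4466 in ctl LPS, 244 and 227 in statin and 99.2 and 77.4 in Ctrl. Statin raised it at rest and lowered it under LPS without overlap, and its interaction was -4.53 ± 0.19 (SE, adjusted p = 1.26e-06). Cd40 (-3.36 ± 0.30, SE, adjusted p = 3.08e-05), which receives help from T cells, and Cd274 (-3.06 ± 0.26, SE, adjusted p = 2.65e-05), the checkpoint ligand PD-L1, were likewise lower.

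Of 8 scavenger and lectin receptors 5 were lower and none higher, where 30.1% and 25.5% of all genes were. With equal totals 2 were higher. Clec4n, the fungal receptor dectin-2, had 922 and 908 normalized counts in statin LPS, 162 and 156 in ctl LPS, 1349 and 1408 in statin and 19.5 and 18.6 in Ctrl. Both statin groups were far above their partners, LPS lowered it with statin (-0.59) and raised it without (3.00), and the interaction was -3.59 ± 0.15 (SE, adjusted p = 1.24e-06). Olr1, a receptor of oxidized lipoprotein, had 4018 and 3742 normalized counts in statin LPS, 871 and 933 in ctl LPS, 262 and 174 in statin and 7.81 and 10.8 in Ctrl and an interaction of -2.29 ± 0.29 (SE, adjusted p = 0.000253), again with statin higher in both states.

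Cell cycle genes moved in the other direction. Of 31 genes 30 were called higher and none lower, with a median of 2.29, where 25.5% of all genes were called higher. Statin lowered all 31 at rest, and under LPS it raised 21 and lowered 4. The median LPS change was -0.87 with statin and -3.05 without. In 21 of the 31 the statin change was called in opposite directions in the 2 states. Ccna2 (chr3:36564865-36573038), cyclin A2 of S phase and G2, had 1157 and 1219 normalized counts in statin LPS, 291 and 295 in ctl LPS, 2970.2 and 2996 in statin and 11630.4 and 8396 in Ctrl. The 4 pairs did not overlap, with ctl LPS lowest, then statin LPS, then statin, and Ctrl highest, and the interaction was 3.74 ± 0.18 (SE, adjusted p = 1.93e-06). Plk1, a kinase of mitosis, showed the same order with 686 and 709 normalized counts in statin LPS, 151 and 149 in ctl LPS, 1152 and 1154 in statin and 4264 and 2889 in Ctrl and an interaction of 3.81 ± 0.22 (SE, adjusted p = 3.66e-06). Cdc6, which loads the replicative helicase, had 106 and 126 normalized counts in statin LPS, 43.7 and 40.1 in ctl LPS, 332 and 273 in statin and 1493 and 1364 in Ctrl and 3.69 ± 0.21 (SE, adjusted p = 3.57e-06). Mcm5, a subunit of that helicase, had 1511 and 1627 normalized counts in statin LPS, 1362 and 1395 in ctl LPS, 2908 and 2777 in statin and 10742 and 8593 in Ctrl. Its LPS pairs differed by 0.19 (adjusted p = 0.136), so the interaction of 1.94 ± 0.14 (SE, adjusted p = 1.08e-05) came mainly from the fall at rest. Ccne2, cyclin E2 of the G1 to S step, did the same, with 2.53 ± 0.31 (SE, adjusted p = 0.000200). Pcna, the replication clamp, was the member not called, at 0.05 (adjusted p = 0.857).

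The genes with the highest interaction values, among those with a mean of at least 10 in each group, were chosen by value and are not members of the cell cycle list. Esco2, which acetylates cohesin in S phase, had 189.7 and 205 normalized counts in statin LPS, 21.0 and 13.8 in ctl LPS, 424 and 484 in statin and 1843 and 1660.3 in Ctrl and 5.40 ± 0.27 (SE, adjusted p = 1.94e-06). Fbxo5, an inhibitor of the anaphase-promoting complex, had 219 and 244 normalized counts in statin LPS, 27.7 and 23.8 in ctl LPS, 458 and 518 in statin and 2467 and 1801 in Ctrl and 5.24 ± 0.24 (SE, adjusted p = 1.59e-06). Ccnf, cyclin F, had 612 and 569.8 normalized counts in statin LPS, 41.2 and 37.6 in ctl LPS, 922 and 968 in statin and 2689 and 2126 in Ctrl and 5.21 ± 0.18 (SE, adjusted p = 8.27e-07). These 3 were lower with statin at rest and higher with statin under LPS. Kcnj2, an inward rectifier potassium channel, had 6092 and 5426 normalized counts in statin LPS, 195 and 165 in ctl LPS, 9598 and 6848 in statin and 6856 and 7633 in Ctrl, so that only ctl LPS was low, and its interaction was 4.83 ± 0.22 (SE, adjusted p = 1.56e-06). Further genes at this end were Pif1 (5.15), a DNA helicase, Exo1 (4.55), a repair exonuclease, Clspn (4.54), a checkpoint adaptor, Wee1 (4.34), the kinase that holds CDK1 inactive, and Aspm (4.13), a spindle pole protein. Hvcn1, a proton channel, had 63.0 and 11.3 in ctl LPS, a spread that gave its interaction of 4.22 an SE of 0.96, and 52.5% of its exonic bases lie over Tctn1 on the other strand, so its reads are uncertain.

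Upstream windows are shown for a gene of G2 that crossed over and for a gene of S phase whose interaction came mainly from rest. In Ccnf capitals mark TTTGAA, the cell cycle homology region, held by 16.0% of all windows, and in Mcm5 they mark TTTNNCGC, a form of the E2F site, held by 4.28%, both searched on either strand. Among the 9310 tested genes that had a window the shares were 12.8% and 8.68%.
Ccnf (chr17:24251410-24251659, minus strand): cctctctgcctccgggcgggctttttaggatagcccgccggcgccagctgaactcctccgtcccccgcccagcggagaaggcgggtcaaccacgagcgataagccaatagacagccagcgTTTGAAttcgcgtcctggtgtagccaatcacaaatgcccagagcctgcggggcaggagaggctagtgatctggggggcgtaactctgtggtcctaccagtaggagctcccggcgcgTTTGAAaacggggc
Mcm5 (chr8:75109259-75109508, plus strand): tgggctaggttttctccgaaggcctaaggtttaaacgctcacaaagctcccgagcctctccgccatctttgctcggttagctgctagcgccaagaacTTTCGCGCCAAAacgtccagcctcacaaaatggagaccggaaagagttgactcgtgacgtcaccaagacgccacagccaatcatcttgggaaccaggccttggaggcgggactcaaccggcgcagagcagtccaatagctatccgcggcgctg
Ccnf holds 2 matches, at -130 and -14, and Mcm5 holds 2 overlapping matches, at -153 and -149. Of the 25 cell cycle list genes with a window, 6 held the cell cycle homology region and 6 the E2F form. The windows of Fbxo5 and Aspm held neither. These matches were not tested for binding.

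**Figure D3:**
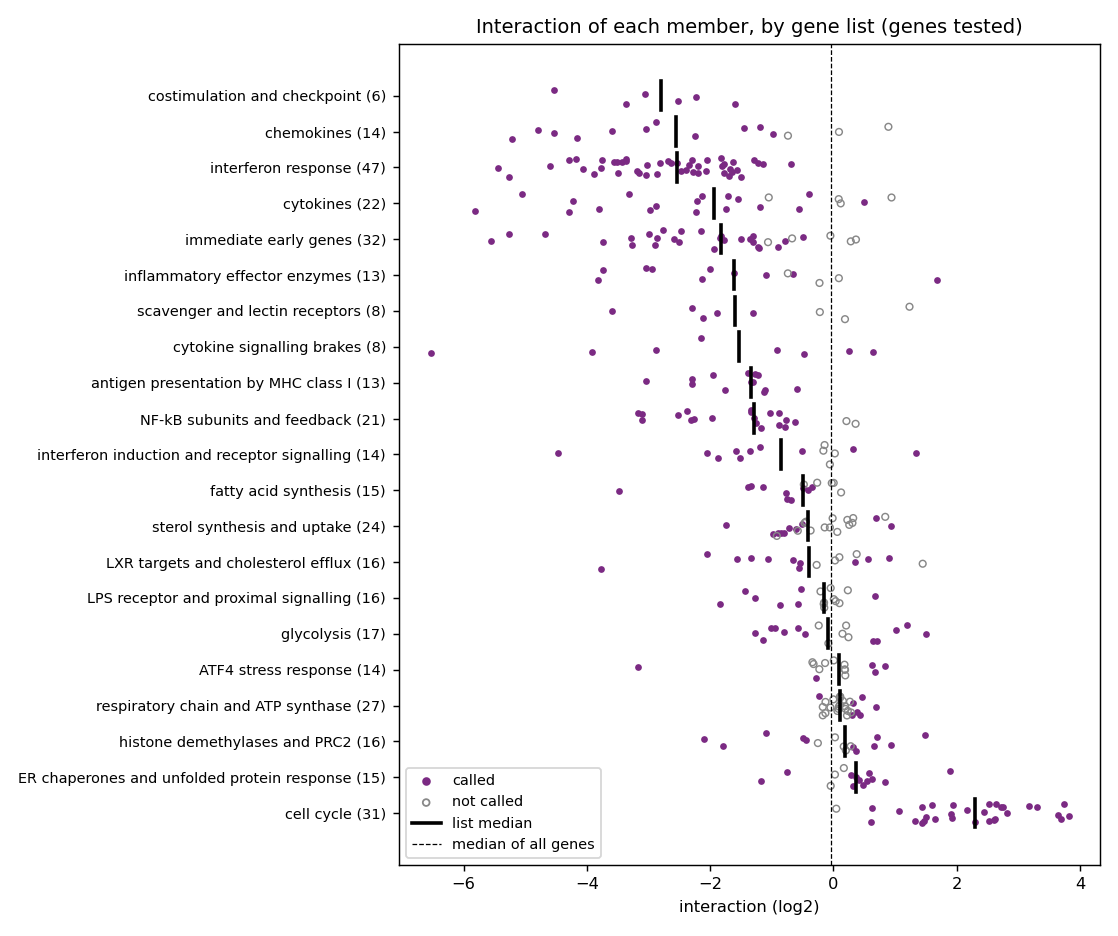
Log2 interaction of each tested member of the gene lists (horizontal axis), 1 row per list and 1 point per gene, with the median of each list and a line at the median of all genes tested, -0.03. The interferon response, MHC class I and costimulation lists lie wholly to the left of 0, and the cell cycle list to its right.

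Genes of sterol synthesis and uptake were raised by statin in both states, and the interaction was modest. Of 24 tested, 22 were higher with statin at rest and 21 under LPS, and the interaction was called lower for 8 and higher for 2, with a median of -0.41. Among all genes tested 30.1% were called lower and 25.5% higher. With equal totals the median turned to 0.05, with 2 lower and 8 higher. Its difference from the median of all genes was -0.38 with the authors' scaling and -0.37 with equal totals. The counts moved with the Ctrl library that was kept, with 10 lower and 9 higher without Ctrl replicate 1 (median -0.09) and 15 lower and 3 higher without Ctrl replicate 2 (median -0.61), and leaving out either statin LPS library, either ctl LPS library or statin replicate 2 left 3 to 5 lower. Sqle, which makes squalene epoxide, had 5367 and 5547 normalized counts in statin LPS, 1449.9 and 1407 in ctl LPS, 9319 and 10518 in statin and 4236 and 5809 in Ctrl, so LPS lowered it less with statin (-0.86) than without (-1.80), and the interaction was 0.94 ± 0.19 (SE, adjusted p = 0.00299).

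Of 15 genes of fatty acid synthesis 10 were lower and none higher, with a median of -0.49, and with equal totals 3 were lower and 3 higher. Leaving out any of the 4 LPS libraries or statin replicate 2 left 5 or 6 lower. Scd1, the desaturase that makes oleate, had 1784 and 1805 normalized counts in statin LPS, 12336 and 12449.7 in ctl LPS, 4947 and 4802 in statin and 2389.8 and 3807 in Ctrl. LPS raised it without statin (2.04) and lowered it with statin (-1.44), and its interaction was -3.48 ± 0.25 (SE, adjusted p = 9.32e-06). Acaca, which makes malonyl-CoA, moved less, with -1.39 ± 0.10 (SE, adjusted p = 9.52e-06). Of 16 LXR targets and genes of cholesterol efflux 8 were lower and 3 higher, and with equal totals 6 were lower and 6 higher. Among all genes tested 30.1% were called lower and 25.5% higher. Abca1 (chr4:53030789-53159988), which exports cholesterol to apolipoprotein A-I, had 61.8 and 70.4 normalized counts in statin LPS, 7240.5 and 7049.9 in ctl LPS, 17.9 and 17.9 in statin and 458 and 517 in Ctrl. Both statin pairs were far below their partners, and the interaction was -2.05 ± 0.17 (SE, adjusted p = 2.16e-05). Abcg1, which exports cholesterol to HDL, had 105 and 121 normalized counts in statin LPS, 13257 and 13409 in ctl LPS, 1116 and 1339 in statin and 10059.6 and 10929 in Ctrl, so that the LPS change was -3.43 with statin and 0.35 without, and its interaction was -3.77 ± 0.14 (SE, adjusted p = 1.06e-06). Npc2, which carries cholesterol out of the lysosome, had 27053 and 26013 normalized counts in statin LPS, 67275 and 66866 in ctl LPS, 18596 and 23158 in statin and 16483 and 19089 in Ctrl and -1.56 ± 0.16 (SE, adjusted p = 7.26e-05).

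Among 16 histone lysine demethylases and PRC2 subunits 5 were lower and 6 higher, with a median of 0.18, shares near the 30.1% and 25.5% of all genes tested, and with equal totals 3 were lower and 10 higher. Kdm6b (chr11:69398508-69420367), the demethylase of H3K27 that the study calls Jmjd3, had 11010.3 and 11021 normalized counts in statin LPS, 7915 and 7876 in ctl LPS, 3512 and 2647 in statin and 564 and 455 in Ctrl. It was highest in statin LPS and lowest in Ctrl with no overlap between groups, statin raised it by 0.48 under LPS and 2.59 at rest, and its interaction was -2.11 ± 0.19 (SE, adjusted p = 3.85e-05). Kdm7a had 7601 and 7579 normalized counts in statin LPS, 8319 and 8026 in ctl LPS, 9805 and 7765 in statin and 2494 and 2935 in Ctrl, with the statin pair spanning the ctl LPS pair, and -1.80 ± 0.16 (SE, adjusted p = 3.43e-05). Ezh2, the methyltransferase of H3K27, had 1144 and 1170.1 normalized counts in statin LPS, 1032 and 1005 in ctl LPS, 1507 and 1533 in statin and 4636 and 3011 in Ctrl, lower with statin at rest and close under LPS, and 1.48 ± 0.23 (SE, adjusted p = 0.000839). Kdm3a (0.93 ± 0.10, SE, adjusted p = 9.30e-05) and Kdm4b (0.70 ± 0.10, SE, adjusted p = 0.000482), which act on H3K9, were also higher.

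Metabolic lists were split, where 25.5% of all genes tested were called higher and 30.1% lower. Of 27 genes of the respiratory chain and ATP synthase 6 were higher and 1 lower, with a median of 0.11. With equal totals 26 were higher, and with quantile normalization 19. The list median lay above that of all genes by 0.143 with the authors' scaling, 0.146 with equal totals and 0.462 with quantile normalization. Without Ctrl replicate 2 the number higher was 14, and it was 1 when both libraries that stood apart were left out. Atp5g1, a subunit of the ring of ATP synthase, had the highest value, 0.69 ± 0.14 (SE, adjusted p = 0.00290), which lost its call without ctl LPS replicate 1 and statin replicate 2 (0.61, adjusted p = 0.0549). Of 17 glycolysis genes 5 were higher and 7 lower, with a median of -0.08, which turned to 0.38 with equal totals, to 0.45 with quantile normalization and to 0.25 without Ctrl replicate 2. Its difference from the median of all genes was -0.05 with the authors' scaling and with equal totals. That difference was 0.38 with quantile normalization and 0.28 without Ctrl replicate 2. Isoforms of phosphofructokinase went apart. The liver form Pfkl had 6321 and 6236 normalized counts in statin LPS, 2193 and 2176 in ctl LPS, 5229 and 5115 in statin and 5321 and 4900.5 in Ctrl, low in ctl LPS alone, and 1.50 ± 0.08 (SE, adjusted p = 3.08e-06), while the platelet form Pfkp had 26039.8 and 24170.4 normalized counts in statin LPS, 35502 and 35691 in ctl LPS, 14529 and 12847 in statin and 9259 and 6896 in Ctrl and -1.28 ± 0.18 (SE, adjusted p = 0.000498). Hk2, an inducible hexokinase, was lower (-1.02 ± 0.13, SE, adjusted p = 0.000208), and Tpi1 (1.20 ± 0.18, SE, adjusted p = 0.000580) and Pgam1 (1.02 ± 0.08, SE, adjusted p = 1.89e-05), of the lower arm of the pathway, were higher.

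Of 15 chaperones and genes of the unfolded protein response 10 were higher and 2 lower, with a median of 0.37. Without statin LPS replicate 2 or without ctl LPS replicate 2 the number higher was 6, and it was 4 when both libraries that stood apart were left out. Dnajb9, a co-chaperone of BiP, had 1323 and 1364 normalized counts in statin LPS, 199.9 and 215 in ctl LPS, 1856 and 1611 in statin and 1006 and 976 in Ctrl. The LPS change was -0.36 with statin and -2.25 without, and its interaction was 1.89 ± 0.13 (SE, adjusted p = 7.35e-06). Hspa5, which encodes BiP itself, was lower, with 105562 and 106137 normalized counts in statin LPS, 102648 and 100797 in ctl LPS, 88471 and 75491 in statin and 35643 and 34099 in Ctrl and -1.17 ± 0.14 (SE, adjusted p = 0.000186). Of 14 genes of the ATF4 stress response 3 were higher and 2 lower, fewer than the 25.5% and 30.1% of all genes tested. One Ctrl library decided the direction of that list, with 3 higher and 8 lower without Ctrl replicate 1 (median -0.32) and 8 higher and 1 lower without Ctrl replicate 2 (median 0.32). Ppp1r15a, which ends the stress block of translation, had 12641 and 11268 normalized counts in statin LPS, 50829 and 51505 in ctl LPS, 2646 and 2332 in statin and 1367 and 1019 in Ctrl and -3.17 ± 0.19 (SE, adjusted p = 3.93e-06).

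Statin changes of opposite sign in the 2 states do not depend on the log scale, and the 2 contrasts share no library. In 971 genes (8.34% of those tested) statin raised the gene at rest, lowered it under LPS and the interaction was called. In 767 (6.59%) it lowered the gene at rest and raised it under LPS. The numbers were 572 and 423 when ctl LPS replicate 1 and statin replicate 2 were left out, and 441 and 1954 with equal totals. Tmcc3, an endoplasmic reticulum membrane protein, had the lowest interaction of the genes named here with a mean of at least 10 in each group. It had 105 and 85.0 normalized counts in statin LPS, 1144 and 1109 in ctl LPS, 305 and 124 in statin and 15.6 and 11.8 in Ctrl. The statin change was -3.56 ± 0.37 under LPS and 3.75 ± 0.37 at rest (SE), no groups overlapped, and the interaction was -7.31 ± 0.52 (SE, adjusted p = 9.36e-06). Scimp, an adaptor of Toll-like receptor signalling in macrophages, had 649 and 629.6 normalized counts in statin LPS, 2817 and 2911 in ctl LPS, 436 and 415 in statin and 17.2 and 36.3 in Ctrl and -6.20 ± 0.38 (SE, adjusted p = 5.07e-06). Snn (-5.42), Trp53i11 (-5.80) and Ccnd2 (-5.41), a D-type cyclin, crossed over in the same direction. Ccnd2 had 24.98 and 2.94 in Ctrl, where the 2 libraries lay far apart. In the other direction Wdhd1 (3.88), a replisome protein, Lrr1 (3.88), Wee1, Exo1, Fbxo5 and Esco2 crossed over.

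**Figure D4:**
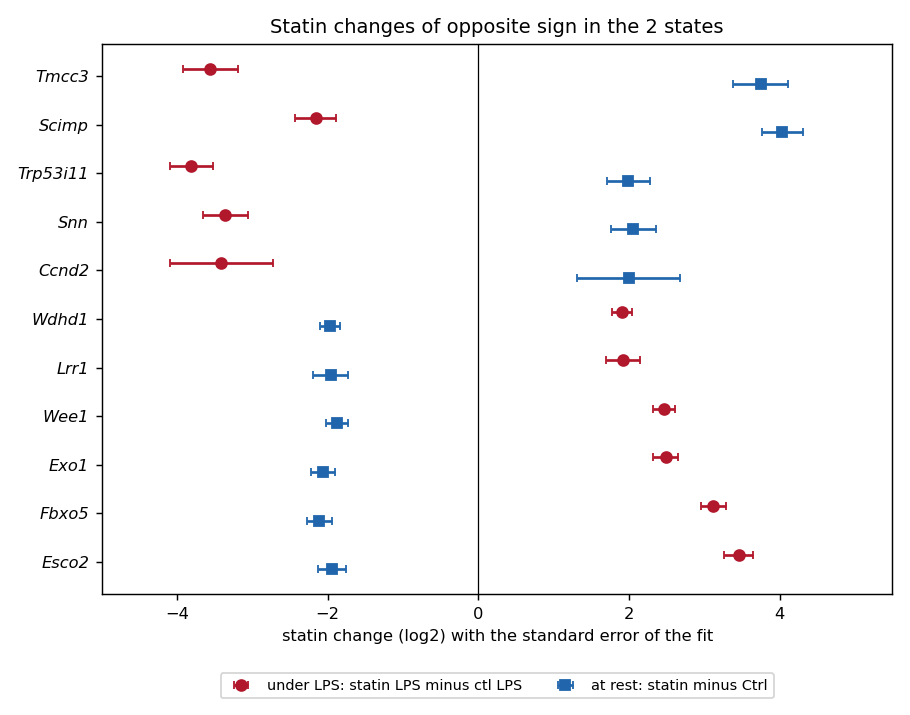
Statin change (horizontal axis, log2, bars for the SE of the limma fit) under LPS (circles, statin LPS minus ctl LPS) and at rest (squares, statin minus Ctrl) for 11 genes among those of each direction with the largest smaller change. From Tmcc3 to Ccnd2 the circles lie below 0 and the squares above it, and from Wdhd1 to Esco2 the reverse holds.

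Among other genes with the lowest values, Tnc, an extracellular matrix protein, had 10410.0 and 9034 normalized counts in statin LPS, 34817 and 35442 in ctl LPS, 3248 and 2168 in statin and 123 and 73.5 in Ctrl. It was called lower under LPS and higher at rest with statin, and its interaction was -6.65 ± 0.34 (SE, adjusted p = 2.25e-06). Tnfsf10, the death ligand TRAIL, had 117 and 126 normalized counts in statin LPS, 7863 and 7901 in ctl LPS, 13.4 and 9.40 in statin and 14.1 and 8.82 in Ctrl, far highest in ctl LPS, and -6.02 ± 0.34 (SE, adjusted p = 3.26e-06). Spsb1, an adaptor that marks NOS2 for degradation, had 59.2 and 47.8 normalized counts in statin LPS, 1283 and 1289.5 in ctl LPS, 24.2 and 31.0 in statin and 15.6 and 7.84 in Ctrl and -5.80 ± 0.43 (SE, adjusted p = 1.15e-05). For genes at or near 0 in a group the fitted value is no bound, and read ratios are given. Pdcd1, the checkpoint receptor PD-1, had 73 reads in statin and 0 in Ctrl, so it was at least 25.7-fold higher in statin against a floor of 3 reads over the pair, whereas under LPS the ratio was 0.235 (95% interval 0.205 to 0.270, counting error only). Socs2, another brake of cytokine signalling, had 24 reads in statin and 0 in Ctrl, at least 8.44-fold higher, and a ratio of 0.112 (0.0522 to 0.216) under LPS. Edn1, which encodes endothelin, had 836 reads in statin and 2 in Ctrl, a ratio of 441 (122 to 3648), and a ratio of 3.85 (3.60 to 4.13) under LPS. Apol9b, an interferon-induced apolipoprotein L with close copies in the genome, had a ratio of 1.06 (0.316 to 3.53) at rest and 0.0166 (0.0118 to 0.0227) under LPS. At the high end Frat2, a GSK3 binding protein, had a ratio of 1.10 (0.965 to 1.26) at rest and 25.1 (11.3 to 69.5) under LPS, and E2f7, a repressor of the cell cycle, had 0.290 (0.259 to 0.324) at rest and 7.73 (4.70 to 13.4) under LPS.

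A minority of genes responded more to LPS with statin. In 133 genes with an interaction called higher, LPS raised the value in both states and the rise was called with statin. In 159 genes with an interaction called lower, LPS lowered the value in both states and the fall was called with statin. Genes called in opposite LPS directions are not among them, 180 called lower without and higher with statin and 257 the reverse. The genes named from the 133 and the 159 were chosen after their values were seen. Pim2, a survival kinase, had 1795 and 1599 normalized counts in statin LPS, 202 and 195 in ctl LPS, 236 and 238 in statin and 215 and 162 in Ctrl. Only statin LPS was high, LPS changed it by 2.83 with statin and 0.09 without (adjusted p = 0.565), and the interaction was 2.74 ± 0.20 (SE, adjusted p = 1.10e-05). Id3, an inhibitor of helix-loop-helix factors, had 2409 and 2516 normalized counts in statin LPS, 1447 and 1489.9 in ctl LPS, 117 and 188 in statin and 1041 and 490.0 in Ctrl and 3.00 ± 0.46 (SE, adjusted p = 0.000707). Wnt6, a secreted Wnt ligand, had 1491 and 1502 normalized counts in statin LPS, 412 and 417 in ctl LPS, 100.3 and 178 in statin and 162 and 164 in Ctrl and 2.13 ± 0.31 (SE, adjusted p = 0.000580). Fabp4, a fatty acid carrier of macrophages and fat cells, had 1054 and 1139.6 normalized counts in statin LPS, 399.9 and 382 in ctl LPS, 167 and 104 in statin and 175 and 249 in Ctrl and 2.14 ± 0.32 (SE, adjusted p = 0.000673). In the other direction Itga4, an integrin of monocyte adhesion, had 37718 and 36901 normalized counts in statin LPS, 115097 and 114148 in ctl LPS, 103374 and 97482 in statin and 108325 and 131238 in Ctrl, so that statin LPS alone was low, and -1.37 ± 0.16 (SE, adjusted p = 0.000135).

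In 1655 genes statin changed expression in the same direction in both states and the interaction was not called, 895 of them higher and 760 lower. A miss of the threshold does not show equal changes, and the intervals bound the difference. Csf3, the growth factor of neutrophils, had 52705 and 50503 normalized counts in statin LPS, 3617 and 3507 in ctl LPS, 59.1 and 48.9 in statin and 4.68 and 1.96 in Ctrl. Statin raised it by 3.86 under LPS and 3.74 at rest, and its interaction was 0.12 ± 0.36 (SE, 95% interval -0.72 to 0.95, adjusted p = 0.802). The Ctrl libraries were near 0, and the interaction was called at 0.59 without Ctrl replicate 2, at 0.94 with quantile normalization and at 1.02 with a pseudocount of 5. Il12b, a subunit of interleukin 12, and Il10, which restrains inflammation, were at or near 0 at rest, so their interactions were wide. Il12b had 60.9 and 65.1 in statin LPS and 304 and 101 in ctl LPS, and Il10 had 87.9 and 93.0 in statin LPS and 59.6 and 36.3 in ctl LPS, and neither was called.

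**Figure D5:**
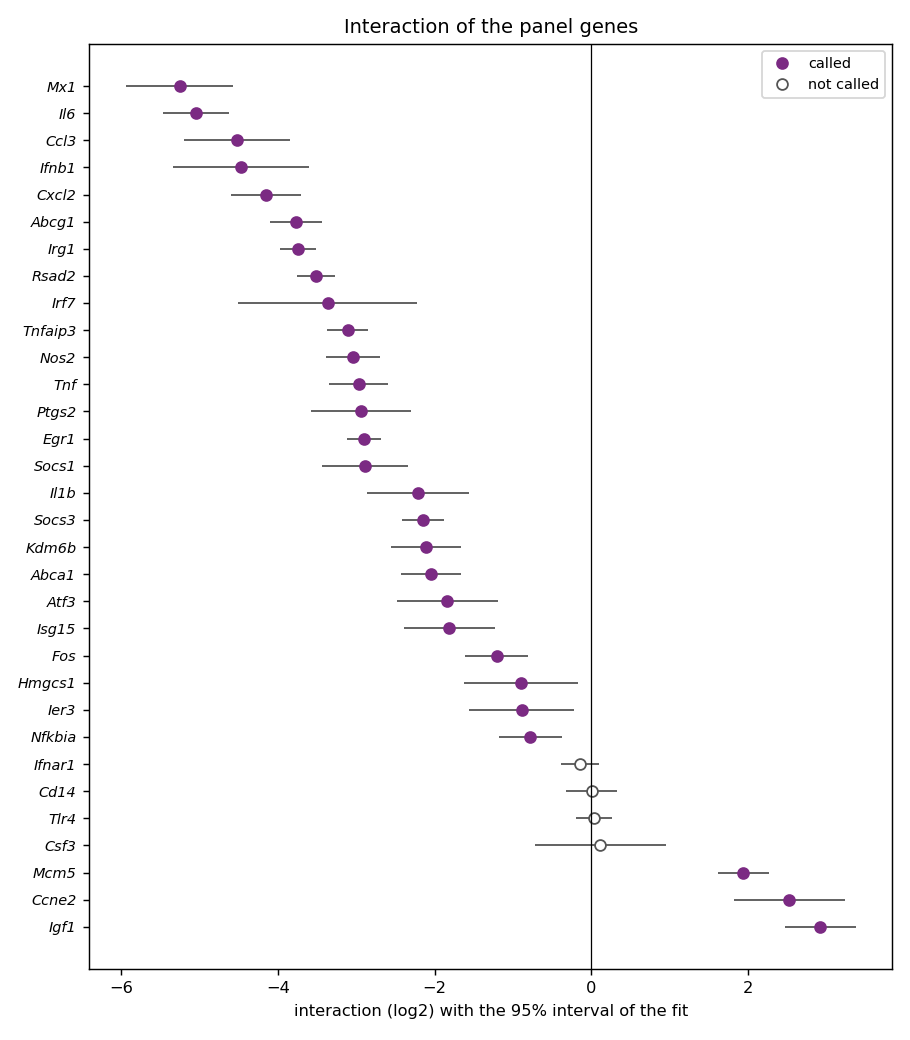
Log2 interaction of the panel genes with bars for the 95% interval of the limma fit, from lowest to highest. Il6 and Mx1 lie near the low end, Ifnar1, Tlr4, Cd14 and Csf3 have intervals that span 0, and the cell cycle genes Ccne2 and Mcm5 lie above 0 with Igf1.

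Igf1, a growth factor made by resting macrophages, had 286 and 320.1 normalized counts in statin LPS, 445 and 369 in ctl LPS, 533 and 539 in statin and 4785 and 6223 in Ctrl. Ctrl stood far above the other 3 groups, and the interaction of 2.93 ± 0.20 (SE, adjusted p = 7.47e-06) came with a statin change of -0.42 under LPS and -3.35 at rest. Of 10 macrophage markers 7 were lower and none higher, where 30.1% of all genes were lower, but 4 were lower without statin LPS replicate 2, 3 without both libraries that stood apart, and 4 with 1 higher under equal totals. Fcgr1, the high-affinity Fc receptor, had 850.0 and 744 normalized counts in statin LPS, 24584 and 24477 in ctl LPS, 762 and 1161 in statin and 1499.8 and 1946 in Ctrl, high in ctl LPS, and -4.08 ± 0.27 (SE, adjusted p = 6.81e-06). Of the osteoclast markers 7 of 9 were tested, 2 higher and 2 lower, where 25.5% of all genes were higher and 30.1% lower. The sum of the osteoclast markers was 20887 and 22234 in statin LPS, 6804 and 6898 in ctl LPS, 10545 and 9322 in statin and 5576 and 5876 in Ctrl. Dcstamp, which drives fusion of osteoclasts and macrophages, had 8134 and 9283 normalized counts in statin LPS, 2844 and 2898 in ctl LPS, 1918 and 1065 in statin and 169 and 102 in Ctrl and -1.84 ± 0.41 (SE, adjusted p = 0.00506). Of the dendritic markers 4 of 7 were tested and Itgax alone was called, lower, with 5603 and 6033 normalized counts in statin LPS, 2134 and 2097 in ctl LPS, 5777 and 4062 in statin and 185 and 482 in Ctrl. The C1q and fibroblast markers that were tested, 3 and 4 genes, had no call in the fit of all libraries, but 1 library decided this. Without ctl LPS replicate 1 all 3 C1q markers were called higher (median 6.64) and 3 of the 4 fibroblast markers were (median 5.83), and without ctl LPS replicate 2 none was called and the medians were -1.61 and -1.41.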

How the data were processed

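Per the labels, RNA was depleted of ribosomal RNA, and the submitters' notes list build mm10 with DESeq2 (1.18.1), HTSeq (0.9.1) and STAR (2.5.3) but no roles. The study's methods name other counting software, and the strand setting of counting is not given in the sources used here. The signal used is the normalized count per gene that the authors deposited, the read count divided by the size factor of the library. Every value was a whole multiple of the value of 1 read, within 0.01 reads, so reads were recovered. Deposited tables of the authors' own comparisons and 12 further columns were not used, and 27 entries with dates for symbols (17 tested) are not named.

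All 8 libraries entered 1 limma fit (3.58.1, R 4.3.3) of log2(normalized count + 1) with 4 group means, eBayes with trend, 4 residual degrees of freedom, two-sided tests and Benjamini-Hochberg adjustment within each contrast over 11647 genes. Fold changes on this scale understate those of low genes. edgeR (4.0.16) and DESeq2 (1.42.0) on the recovered reads were alternatives, and the fit was tested on simulated data. Members and lists were chosen with earlier results of these data known. Named genes are the 12 highest and lowest called interactions with a mean of at least 10 in each group, 6 crossover genes per direction, the 3 highest and lowest called genes per list, a fixed panel, and the 5 highest and lowest called genes with a group mean under 10 and a mean of at least 100, from which examples are given. A few genes that the rule names are not reported here.

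Over 10% of exonic bases lie over another gene for Arg2, Arhgap22, Ccna2, Ccne2, Cd274, Cish, Cxcl11, Daglb, Gadd45a, Hmgcs1, Hvcn1, Itgam, Pfkp, Phlda1, Rgs16 and Tap2, and families with close copies (Apol9b, Oas1a, Ifi204, Trim30d, H2-K1) may share reads, so their values are uncertain.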

Additional observations from a re-analysis of the deposited data

Results flagged for a closer look

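The genes below differ in their statin change between LPS-stimulated and resting cells by the test of that difference itself, as does every called gene. The counts are 2973 genes higher and 3507 lower in the interaction, with 971 genes raised by statin at rest and lowered under LPS and 767 of the opposite kind. Of the genes raised at rest and lowered under LPS, those with the largest smaller change had log2 interactions of -7.31 (Tmcc3), -6.20 (Scimp), -5.80 (Trp53i11), -5.42 (Snn) and -5.41 (Ccnd2). Of those lowered at rest and raised under LPS they had 3.88 (Wdhd1), 3.88 (Lrr1), 4.34 (Wee1), 4.55 (Exo1), 5.24 (Fbxo5) and 5.40 (Esco2). All 11 kept their interaction call under the 20 alternatives.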

How the results depend on the processing

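Of the 156 named genes with a called interaction, 132 kept direction and call under all 20 alternatives. Values turned sign with equal totals for Ifnar1 (0.31) and Sesn2 (0.18), where the median of all genes was 0.42. Equal totals gave 5935 higher and 1892 lower interactions, 6159 and 2065 for statin under LPS, 2114 and 7993 for LPS without statin, 1556 and 6691 for LPS with statin, and crossovers of 441 (raised at rest) and 1954, where the shift of the scale by library is the only change. Without ctl LPS replicate 1 and statin replicate 2, LPS with statin gave 2261 higher and 2187 lower, and crossovers were 572 and 423, with fewer samples in the fit. Leaving out each library in turn gave 2414 to 3387 higher and 2920 to 3881 lower interactions, 2964 to 3718 and 2280 to 3325 for statin at rest, 2909 to 4039 and 3063 to 4218 for statin under LPS, 4189 to 4694 and 3868 to 4376 for LPS without statin, 2479 to 3900 and 2481 to 3857 for LPS with statin, and crossovers of 723 to 1176 and 564 to 1022, the lone sample of a pair being assumed to vary like the others. edgeR called 2956 higher and 3451 lower, and DESeq2 2753 and 3303. Same-numbered libraries did not deviate together (correlations of -0.09 to 0.11). With 2 libraries in each group this cannot show whether they were prepared together. With the replicate block 2917 interactions were higher and 3479 lower. Hmgcs1, Ier3, Pdgfb, Ptpn1, Mmp9, Sesn2 and Tns2 lost their call in 7 to 13 alternatives each.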
